A study of Mus musculus with 20 samples.

Results

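The 34 genes described here encode lysosomal hydrolases, lysosomal membrane proteins and the proton pump that acidifies the lysosome. They were chosen by name, not by their values, though earlier results of these data were known. A probe counted for a gene if its RefSeq accession belonged to that gene, and the brightest probe stood for the gene. All 34 had a probe, of 17178 genes named on the array, and all 34 passed the filter on dim probes. Transcripts were measured on 20 one-colour Agilent arrays. The cells were MEFs, that is, fibroblasts cultured from mouse embryos, kept for 24 hours with the serum of female mice of the inbred strain C3H/HeN. There were 5 arrays in each of 4 groups. Each of 2 sets, a 10-day set and a 20-day set, had a control group (0 Gy) whose serum donors were not irradiated. The donors of the irradiated groups had received L/MDR irradiation, at 4 Gy in the 10-day set and at 8 Gy in the 20-day set, so that dose and days changed together. The labels do not expand L/MDR, do not say what the days count, and give neither the age of the mice nor the strain of the cells. The labels also leave unsaid whether replicate arrays stand for separate cultures or donors, and p-values therefore cover array-to-array spread alone, which may be technical.

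Lysosomes break down material taken up by endocytosis or delivered by autophagy, and their enzymes work best at acid pH. The vacuolar ATPase (V-ATPase) supplies that acidity: its peripheral V1 part splits ATP, and its membrane-embedded V0 part carries protons across the membrane. Glycosidases, sulfatases, lipid-handling proteins and proteases act in the lumen, while heavily glycosylated membrane proteins such as LAMP1 line the inner face and transporters export the products. Many lysosomal genes are described as carrying a short E-box in their promoter, called the CLEAR element, to which the transcription factors TFEB, TFE3 and MITF bind. Cells with high phagocytic or resorptive activity, such as macrophages and osteoclasts, are known for large amounts of lysosomal protein.

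Of the 34 genes, 27 had a promoter entry in RefSeq (GRCm38.p6), a window of fixed length around the transcription start. The 7 letters TCACGTG, on either strand, occurred in 9 of the 27 windows (33.33%), against 4.292% of the 27025 genes in that table. The E-box CACGTG within it was in the same number of windows (9 of 27, against 8.093% of all genes). A longer motif that contains TCACGTG was also searched for and was in 0 of the 27 windows, against 0.37% of all genes. The matches given here are therefore to the shorter letters only. The genes with TCACGTG were Atp6v0b, Atp6v0d1, Atp6v0e, Atp6v1a, Gaa, Gla, Glb1, Lamp1 and Mcoln1. A match is a description of the letters and not a sign of binding. The 150 bases before the start are shown for 6 of these genes, since 4 of them (Atp6v0b, Atp6v1a, Lamp1 and Mcoln1) were higher and 2 (Gaa and Glb1) lower in control cultures of the 20-day set, and the letters stand in each window. Sequences run 5′ to 3′ along the gene's own strand, and capitals mark TCACGTG or its reverse complement CACGTGA, which can overlap. The windows are chr8:13159011-13159160 on the plus strand for Lamp1, chr8:3500369-3500518 on the plus strand for Mcoln1, chr4:117887330-117887479 on the minus strand for Atp6v0b, chr16:44139260-44139409 on the minus strand for Atp6v1a, chr11:119267813-119267962 on the plus strand for Gaa and chr9:114400928-114401077 on the plus strand for Glb1.
Lamp1: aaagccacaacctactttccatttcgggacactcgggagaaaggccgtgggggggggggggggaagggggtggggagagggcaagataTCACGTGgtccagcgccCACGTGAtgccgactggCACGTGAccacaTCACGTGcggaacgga
Mcoln1: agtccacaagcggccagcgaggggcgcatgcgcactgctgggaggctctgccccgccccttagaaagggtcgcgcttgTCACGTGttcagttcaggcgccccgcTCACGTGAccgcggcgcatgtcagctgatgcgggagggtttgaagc
Atp6v0b: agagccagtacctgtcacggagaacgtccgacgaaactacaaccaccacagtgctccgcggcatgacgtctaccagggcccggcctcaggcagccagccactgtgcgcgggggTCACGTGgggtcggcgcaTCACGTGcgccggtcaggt
Atp6v1a: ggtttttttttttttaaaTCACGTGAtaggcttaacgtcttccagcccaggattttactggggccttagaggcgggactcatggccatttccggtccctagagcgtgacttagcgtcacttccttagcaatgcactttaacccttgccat
Gaa: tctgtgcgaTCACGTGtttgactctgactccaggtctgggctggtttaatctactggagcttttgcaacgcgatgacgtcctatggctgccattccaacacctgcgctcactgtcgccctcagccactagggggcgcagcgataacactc
Glb1: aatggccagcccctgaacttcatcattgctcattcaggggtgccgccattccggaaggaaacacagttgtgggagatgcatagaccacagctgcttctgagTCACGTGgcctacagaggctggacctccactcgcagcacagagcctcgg
Lamp1 held 4 matches within these 150 bases, Mcoln1 and Atp6v0b held 2 each, and the other 3 genes held 1 each. In the comparison of control cultures of the 20-day set with those of the 10-day set, 6 of the 9 genes with the letters were higher and 3 lower. Of the 18 genes without them 8 were higher and 4 lower, and of all genes on the array 37% and 29.4%. With 8 Gy serum 3 of the 9 rose and 2 fell, and of the 18 others 5 rose and 6 fell (17.3% and 28.8% of all genes). Between the irradiated groups of the 2 sets 4 of the 9 were higher and 1 lower. Of the 18 others 11 were higher and 0 lower there (29.2% and 28.8% of all genes).

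Signals are log2 intensities minus the 75th percentile of the array, so a signal of 0 equals that percentile and all changes are relative to it. A log2 change is a difference between 2 group means, given with the standard error (SE) of the limma fit (n = 5 arrays a group), and a gene is called changed at an adjusted p under 0.05 over all genes tested (Benjamini-Hochberg). Arrays held 41174 probes each, 56.8% to 67.2% of them well above background, and replicates of a group correlated at 0.978 to 0.993. The 10-day set and the 20-day set were hybridised to different slides and scanned on different days, so for any difference between the sets the serum, the slide and the scan cannot be told apart. Of the genes described here 33 were well above background on all 20 arrays, and Psap, whose spot was left out on 1 array, on the other 19. The spread was widest among control arrays of the 20-day set: their SD was the highest of the 4 groups for 24 of the 34 genes, with a median SD of 0.21 against 0.09 to 0.10 in the other groups. The fit used 1 spread per gene for all 4 groups, so SE and p-values of comparisons with these control arrays tend to be too small. In a fit on the 2 control groups alone, Atp6v1a and Glb1 were not called.

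Between the control cultures, 18 of the 34 genes were higher in the 20-day set and 9 were lower, with 7 not called. Over all 20224 genes 66.4% were called, 37% higher and 29.4% lower, so the members' share of higher calls stood above the background and their share of lower calls close to it. The median log2 change of the 34 genes was 0.51, against 0.07 over all genes. It fell to 0.22 under quantile normalisation (15 higher, 11 lower) and to 0.13 under cyclic loess (14 higher, 12 lower), both of which remove differences that depend on signal. Over all genes 6779 were higher and 6336 lower under quantile normalisation, and 6802 and 6445 under cyclic loess. With irradiated serum, 8 Gy of the 20-day set against 4 Gy of the 10-day set, 19 genes were higher and 3 lower (29.2% and 28.8% of all genes, 58% in either direction). The median was 0.41 against 0.00 over all genes. Under cyclic loess 17 were higher and 9 lower, and over all genes 5820 and 5838. These comparisons share no arrays, but both set the 20-day set against the 10-day set. A slide or scan-day difference between the sets therefore enters both, and agreement between them is not independent of it. Genes called the same way in both were not counted over all genes, so the shared calls have no background. Of the 34 genes, 15 were called higher in both, 3 lower in both, and 1, Atp6v0a1, lower between controls and higher between irradiated groups. The latter call of Atp6v0a1 (0.25) was lost without any 1 of 8 arrays (4 Gy arrays 1 to 4 and 8 Gy arrays 1 to 4, 0.23 to 0.26) and with slide as a random block (0.24). All 17 macrophage markers tested were also higher in 20-day than in 10-day controls, by a median log2 change of 4.07. Among them, Spi1 passed the filter on dim probes only through the 20-day set. The part of these markers in the values of the lysosomal genes was not tested. In RNA of whole cultures, more cells of a type and more RNA per cell cannot be told apart.

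**Figure D1:**
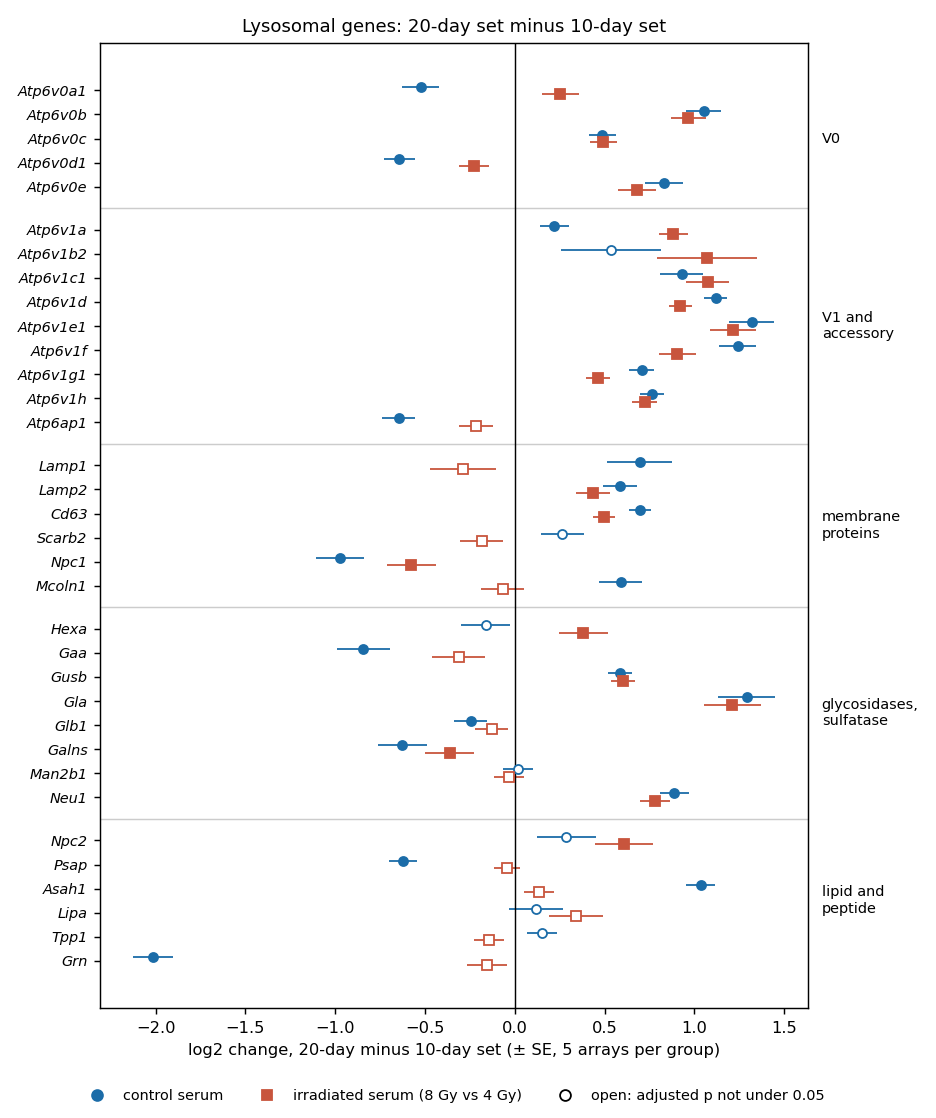
Log2 change of each lysosomal gene between the 20-day and the 10-day set (x axis), with control serum (circles) and with irradiated serum (squares, 8 Gy against 4 Gy), grouped by role; bars are SE of the limma fit, and open symbols did not pass the threshold. Most V1 subunits lie to the right of 0 with both sera, and Grn lies at −2.02 with control serum and at −0.15 with irradiated serum.

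In the 20-day set, 8 Gy serum raised 11 of the 34 genes and lowered 10 relative to control serum, with a median log2 change of 0.00 against −0.09 over all 20225 genes tested. Over all genes 46% were called, of which 17.3% rose and 28.8% fell, each as a share of all genes. The split depended on the scaling: 5 rose and 13 fell when arrays were scaled to their median, 11 and 4 under quantile normalisation and 11 and 2 under cyclic loess. Over all genes the split moved as well. With arrays scaled to their median 2367 rose and 8074 fell, under quantile normalisation 3551 and 4999, and under cyclic loess 3867 and 4816. All 5 control arrays of this set lay on 2 slides and all 8 Gy arrays on 2 others, so in this comparison too serum and slide cannot be told apart. With slide as a random block 6 genes rose and 6 fell, and over all genes 2119 rose and 3792 fell, against 3491 and 5817. Array-median scaling moved the median of all genes from −0.09 to −0.24. A fit on the 2 compared groups alone, which leaves out the smaller spread of the 10-day set, called 6 up and 7 down (2553 and 4663 over all genes). Atp6v1b2, Atp6ap1, Lamp2, Npc1, Hexa, Galns, Neu1 and Tpp1 were not called in it. Deviations of same-numbered arrays of this set correlated at 0.14 to 0.41, but only 2 of the 5 correlated best with their own number. Arrays 1 to 3 of each group shared 1 slide, so the number goes partly with the slide, and a pairing is not shown. With the replicate number as a block in a fit on the 10 arrays of this set 6 genes rose and 6 fell (2518 and 4440 over all genes). Grn, Psap and Gaa rose, and Asah1 and Lamp1 fell, in every alternative run, those that left out an array included. In the 10-day set, 4 Gy serum changed 0 of the 34 genes by limma (5.97% of all genes called, 4.5% upward and 1.46% downward), with 3 at an unadjusted p under 0.05. The calls over all genes were 911 upward and 296 downward, and with slide as a random block they were 0 and 1, again with no member called; with slide as a fixed block they were 1 and 19.

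The V0 sector comprised 5 genes, of which 3 were higher and 2 lower in control cultures of the 20-day set (37% and 29.4% of all genes). With 8 Gy serum 2 rose and the other 3 were not called (17.3% of all genes rose and 28.8% fell). Atp6v0b encodes c'', a subunit of the membrane-embedded proton-carrying ring. Its signal was 1.98, 2.16, 2.22, 2.28 and 2.10 in control cultures of the 10-day set and 3.55, 3.15, 3.04, 3.21 and 3.07 in those of the 20-day set. With irradiated serum it was 2.27, 2.00, 2.15, 2.23 and 2.18 at 4 Gy and 3.18, 3.23, 3.22, 3.16 and 2.86 at 8 Gy. The sets did not overlap, whereas irradiated and control arrays of 1 set did. The log2 change between control groups was 1.05 ± 0.10 (adjusted p = 1.84e-08), a 2.07-fold difference, and that with 8 Gy serum was −0.07 ± 0.10 (adjusted p = 0.577). Atp6v0c, the main subunit of the proton ring, was 0.49 higher between control groups and 0.49 higher between irradiated groups, both called.

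Atp6v0d1, which links the proton ring to the V1 stalk, went the other way. Its signal was 2.74, 2.77, 2.80, 2.60 and 2.50 in 10-day controls and 1.74, 2.24, 2.20, 1.97 and 2.05 in 20-day controls. Irradiated serum gave 2.70, 2.54, 2.68, 2.63 and 2.63 at 4 Gy and 2.45, 2.40, 2.41, 2.40 and 2.39 at 8 Gy. Every 20-day control array was below every array of the other groups, and the 8 Gy arrays lay between those controls and the 10-day controls. The log2 change was −0.64 ± 0.08 between control groups (adjusted p = 1.88e-06) and 0.37 ± 0.08 with 8 Gy serum (adjusted p = 0.00169); the latter was not called with arrays scaled to their median (adjusted p = 0.0657) or with normexp background correction (adjusted p = 0.0619).

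Atp6v0a1 encodes an isoform of the large subunit that forms the proton channel with the ring. Its signal was −0.36, −0.25, −0.25, −0.13 and −0.36 in 10-day controls and −0.32, −0.85, −0.81, −1.04 and −0.97 in 20-day controls. It was −0.43, −0.36, −0.36, −0.37 and −0.26 with 4 Gy serum and −0.05, −0.15, −0.05, −0.01 and −0.24 with 8 Gy serum. The 8 Gy arrays all exceeded their controls, while control array 1 of the 20-day set lay within the range of the 10-day controls. The log2 change was 0.69 ± 0.10 with 8 Gy serum (adjusted p = 3.23e-05) and −0.52 ± 0.10 between control groups (adjusted p = 1.93e-04). A dimmer probe of Atp6v0a1, well above background on all 20 arrays, gave −0.03 and 1.48 for these, and the mean of both probes gave 0.33 (adjusted p = 0.0595) and 0.48. Atp6v0e, a small membrane subunit, read 5.13, 5.33, 5.32, 5.05 and 4.99 in 10-day controls and 6.36, 5.97, 6.05, 5.65 and 5.95 in 20-day controls. At 4 Gy it was 5.23, 5.07, 5.00, 4.99 and 5.05, and at 8 Gy 5.70, 5.91, 5.65, 5.70 and 5.77. The sets were separate for this gene, by 0.83 ± 0.11 between controls (adjusted p = 1.20e-06), and its change with 8 Gy serum, −0.25 ± 0.11, was not called (adjusted p = 0.061); it was called with arrays scaled to their median (−0.39), with the replicate block over all arrays (adjusted p = 0.0465), and without control array 4 (−0.34) or 8 Gy array 2 (−0.29).

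Of the 9 V1 and accessory genes 7 were higher and 1 lower in control cultures of the 20-day set (37% and 29.4% of all genes). Between the irradiated groups 8 were higher (29.2% of all genes). Within the proton pump as a whole, V0 and V1 together (14 genes), the count between controls was 10 higher and 3 lower. Under array-median, quantile, cyclic loess and normexp values it stayed between 9 and 11 higher with 3 lower. Over all genes 8635 were higher and 4864 lower under array-median scaling, and 6779 and 6336 under quantile normalisation. Under cyclic loess they were 6802 and 6445, and under normexp 9025 and 4258. Atp6v1e1, a subunit of the peripheral stalk, had the highest log2 change of all 34 genes between controls. It read 1.31, 1.33, 1.38, 1.56 and 1.17 in 10-day controls and 2.73, 2.66, 3.12, 2.44 and 2.39 in 20-day controls. Irradiated serum gave 1.33, 1.18, 1.38, 1.37 and 1.41 at 4 Gy and 2.69, 2.80, 2.62, 2.35 and 2.29 at 8 Gy. The change between controls was 1.32 ± 0.13 (2.49-fold, adjusted p = 2.61e-08), its other probe gave 1.32 as well, and the arrays of the sets did not overlap. Its change with 8 Gy serum, −0.12 ± 0.13, was within the array spread (adjusted p = 0.475).

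Atp6v1f encodes subunit F of the central rotor. Its signal was 5.26, 5.22, 5.29, 5.18 and 5.02 in 10-day controls and 6.41, 6.59, 6.24, 6.47 and 6.48 in 20-day controls. It was 5.32, 5.14, 4.93, 4.92 and 5.00 with 4 Gy serum and 6.28, 6.08, 5.96, 5.82 and 5.70 with 8 Gy serum. Only 8 Gy array 1 reached into the range of its controls. Atp6v1f was higher by 1.24 ± 0.11 between controls (adjusted p = 4.96e-09) and fell with 8 Gy serum by a log2 change of −0.47 ± 0.11 (adjusted p = 0.00139), a fall that was not called under cyclic loess (−0.17) or normexp (−0.25). Atp6v1d, subunit D of the same rotor, and Atp6v1g1, subunit G of the peripheral stalk, showed the same order of groups. They were 1.12 and 0.71 higher between controls. They fell with 8 Gy serum, with log2 changes of −0.29 and −0.34, which quantile normalisation and cyclic loess did not call.

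Atp6v1a encodes the catalytic, ATP-splitting subunit A. Its signal was 0.44, 0.67, 0.58, 0.45 and 0.33 in 10-day controls and 0.81, 0.89, 0.69, 0.56 and 0.63 in 20-day controls. It was 0.34, 0.26, 0.21, 0.18 and 0.23 with 4 Gy serum and 1.13, 1.24, 1.19, 0.96 and 1.12 with 8 Gy serum. The 8 Gy arrays were above all 15 other arrays, and the control groups overlapped. Its log2 change was 0.41 ± 0.08 with 8 Gy serum (adjusted p = 3.80e-04), 0.22 ± 0.08 between controls (adjusted p = 0.0206) and 0.88 ± 0.08 between irradiated groups (adjusted p = 2.82e-08). The call between controls was lost without 10-day control array 5 or 20-day control array 2 (0.18 in each case) and under quantile normalisation (0.17) and cyclic loess (0.13). The call with 8 Gy serum was lost under normexp (0.17).

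Atp6v1b2, the nucleotide-binding subunit B2 that alternates with subunit A, read −0.57, −0.63, −0.64, −0.36 and −0.47 in 10-day controls and 1.30, 0.17, −1.19, −0.40 and 0.15 in 20-day controls. It read −0.35, −0.43, −0.18, −0.26 and −0.28 with 4 Gy serum and 0.56, 0.79, 0.75, 1.04 and 0.70 with 8 Gy serum. The 20-day control arrays spanned the range of all the other groups, with array 1 highest and array 3 lowest of all 20 arrays. The rise with 8 Gy serum, 0.76 ± 0.28, was called (adjusted p = 0.0316). It was not called with arrays scaled to their median (0.62), with the replicate block within that set (adjusted p = 0.153), nor without control array 3 (0.46) or 4 (0.66), or 8 Gy array 2 (0.76), 3 (0.77) or 4 (0.69).

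The remaining V1 genes differed mainly between the sets. Atp6v1c1, a subunit that regulates assembly of V1 on V0, was 0.93 higher between controls and 1.07 between irradiated groups, and Atp6v1h, another regulatory subunit, 0.76 and 0.72. Both were called in each comparison and, in the full fit, in neither response to irradiated serum. Atp6v1h was called lower with 8 Gy serum under array-median scaling (−0.22) and normexp (−0.32). Atp6v1c1 was called lower with 4 Gy serum (−0.23) in a fit on the arrays of the 10-day set alone. Atp6ap1, an accessory protein needed for pump assembly, had the lowest change of the V1 and accessory genes. It read 2.94, 3.00, 3.03, 2.91 and 2.82 in 10-day controls and 2.61, 2.37, 2.14, 2.16 and 2.18 in 20-day controls. At 4 Gy it was 2.92, 2.69, 2.74, 2.84 and 2.76, and at 8 Gy 2.66, 2.54, 2.68, 2.68 and 2.32. The control groups did not overlap (−0.65 ± 0.09, adjusted p = 5.46e-06), whereas 8 Gy arrays overlapped with their controls. The rise with 8 Gy serum was 0.28 ± 0.09 (adjusted p = 0.0191) and was not called with the replicate block within that set (adjusted p = 0.0925), with array-median scaling (0.14) or under normexp (0.15).

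Of the 6 membrane proteins and transporters 4 were higher and 1 lower in control cultures of the 20-day set (37% and 29.4% of all genes). With 8 Gy serum 1 rose and 4 fell (17.3% and 28.8% of all genes). With the replicate block within the 20-day set only Lamp1 and Cd63 kept their call, both downward. Lamp1 encodes an abundant glycoprotein of the lysosomal membrane. Its signal was 4.95, 5.02, 4.91, 4.97 and 5.09 in 10-day controls and 5.84, 5.64, 5.39, 5.84 and 5.72 in 20-day controls. It was 5.20, 5.11, 5.08, 5.04 and 5.07 with 4 Gy serum and 3.80, 5.10, 5.10, 4.99 and 5.07 with 8 Gy serum. The 20-day controls stood above every array of the other groups, and 8 Gy array 1 stood far below the other 4. The log2 change with 8 Gy serum was −0.87 ± 0.18 (adjusted p = 7.47e-04), and it stayed called without any single array; the change between controls, 0.70 ± 0.18 (adjusted p = 0.00244), was not called under quantile normalisation (0.26) or cyclic loess (0.23).

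Cd63 encodes a tetraspanin of late endosomes and lysosomes, and its change between controls was as large as that of Lamp1 with a smaller error. It read 7.13, 7.11, 7.13, 7.05 and 7.04 in 10-day controls and 7.75, 7.98, 7.74, 7.69 and 7.79 in 20-day controls. Irradiated serum gave 7.02, 6.97, 6.89, 6.90 and 6.83 at 4 Gy and 7.42, 7.46, 7.47, 7.34 and 7.41 at 8 Gy. Irradiated arrays were below their controls in both sets, and the sets did not overlap. The log2 change was 0.70 ± 0.06 between controls (adjusted p = 1.05e-08, but 0.04 under cyclic loess), −0.37 ± 0.06 with 8 Gy serum (adjusted p = 1.16e-04, but 0.0030 under cyclic loess) and −0.17 ± 0.06 with 4 Gy serum (adjusted p = 0.114). Lamp2, the partner of LAMP1 that also serves chaperone-mediated autophagy, was 0.59 higher between controls (adjusted p = 2.11e-05), but was not called under quantile normalisation (0.18) or cyclic loess (0.14). Its change of −0.24 with 8 Gy serum (adjusted p = 0.0454) was lost without any 1 of 8 arrays (−0.25 to −0.16; control arrays 2, 3 and 4 and each 8 Gy array) and with the replicate block within the set (adjusted p = 0.11), and turned positive under cyclic loess (0.027) and normexp (0.066).

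Mcoln1 encodes TRPML1, the calcium channel of the lysosomal membrane. Its signal was 2.22, 2.21, 2.25, 2.39 and 2.31 in 10-day controls and 3.22, 3.01, 2.80, 2.72 and 2.58 in 20-day controls. It was 2.27, 2.28, 2.77, 2.77 and 2.77 with 4 Gy serum and 2.50, 2.44, 2.56, 2.50 and 2.52 with 8 Gy serum. With 4 Gy serum, arrays 1 and 2 were on the slide that also held control array 5 (2.31) and read alike, and arrays 3 to 5, on a slide of their own, read 2.77 each. The change with 8 Gy serum was −0.36 ± 0.12 (adjusted p = 0.0193). It was not called without control array 1 (−0.27), under quantile normalisation (−0.17) or cyclic loess (−0.20), with the replicate block within the set (adjusted p = 0.0617), with slide as a random block (adjusted p = 0.0833) or without the 3 control arrays of their first slide (−0.15).

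Npc1, the membrane transporter that exports cholesterol from the lysosome, was the only membrane gene called lower between controls. It read −1.13, −0.99, −1.12, −1.03 and −0.97 in 10-day controls and −2.68, −1.75, −1.68, −2.06 and −1.92 in 20-day controls. At 4 Gy it was −1.13, −0.97, −1.13, −1.19 and −1.12, and at 8 Gy −1.72, −1.83, −1.71, −1.51 and −1.65. All arrays of the 20-day set were below those of the 10-day set, control array 1 farthest. The change was −0.97 ± 0.13 between controls (adjusted p = 3.19e-06) and −0.58 ± 0.13 between irradiated groups (adjusted p = 0.00121). The rise with 8 Gy serum (0.33 ± 0.13, adjusted p = 0.0483) was not called with the replicate block within the set (adjusted p = 0.173) or under array-median scaling (0.19), quantile normalisation (0.24), cyclic loess (0.29) or normexp (0.24). It was also lost without any 1 of 7 arrays: control arrays 1 (0.17), 4 (0.32) and 5 (0.36), and 8 Gy arrays 1, 3, 4 and 5 (0.29 to 0.34). Scarb2, encoding LIMP-2, the receptor that carries glucocerebrosidase to lysosomes, was not called between controls (0.26) or with 8 Gy serum (−0.26); both were called with arrays scaled to their median (0.39 and −0.40) and without 20-day control array 4 (0.34 and −0.33), as was the first without control array 5 (0.30) and the second without 8 Gy array 2 (−0.34).

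**Figure D2:**
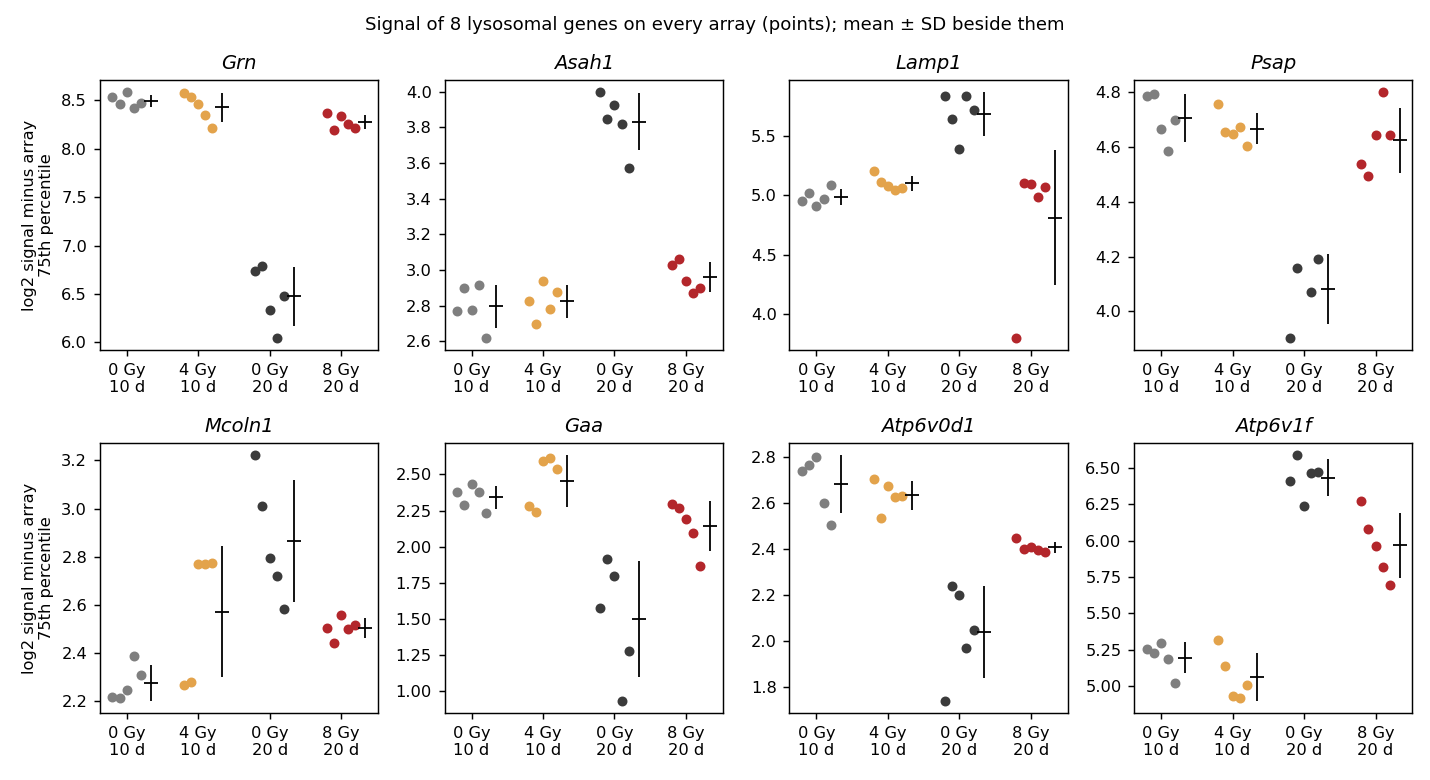
Signal of 8 lysosomal genes on each array (y axis, log2 intensity minus the array's 75th percentile) in the 4 serum groups (x axis: dose and set), with mean ± SD beside the points (n = 5 arrays, 4 for Psap in 20-day controls). In Grn and Psap the 20-day controls (0 Gy, 20 d) lie below all other arrays, in Asah1 and Lamp1 above them, and in Mcoln1 the 4 Gy arrays fall at 2.27 and 2.28 or at 2.77.

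Of the 8 glycosidase and sulfatase genes 3 were higher and 3 lower in control cultures of the 20-day set (37% and 29.4% of all genes). With 8 Gy serum 3 rose and 1 fell (17.3% and 28.8% of all genes). Gla, the alpha-galactosidase that is deficient in Fabry disease, led the higher ones. It read −1.24, −1.02, −1.04, −1.19 and −1.08 in 10-day controls and −0.61, 0.61, 0.30, 0.12 and 0.47 in 20-day controls. Irradiated serum gave −1.06, −1.21, −1.03, −0.70 and −0.95 at 4 Gy and 0.16, 0.27, 0.29, 0.15 and 0.24 at 8 Gy. Both groups of the 20-day set were above all 10-day arrays, with control array 1 of the 20-day set nearest to them. The log2 change was 1.29 ± 0.16 between controls (2.45-fold, adjusted p = 8.18e-07), 1.21 ± 0.16 between irradiated groups (adjusted p = 3.59e-06) and 0.04 ± 0.16 with 8 Gy serum (adjusted p = 0.839).

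Gaa, the acid alpha-glucosidase that degrades glycogen in lysosomes, had the lowest change of these genes between controls and the highest with 8 Gy serum, comparisons that share the 20-day control arrays. It read 2.38, 2.29, 2.43, 2.38 and 2.24 in 10-day controls and 1.58, 1.92, 1.80, 0.93 and 1.28 in 20-day controls. At 4 Gy it was 2.28, 2.24, 2.60, 2.61 and 2.54, and at 8 Gy 2.30, 2.26, 2.19, 2.09 and 1.86. The 20-day controls were below all 10-day arrays, and 4 of 5 8 Gy arrays were above all their controls. The changes were −0.84 ± 0.15 between controls (adjusted p = 5.10e-05) and 0.64 ± 0.15 with 8 Gy serum (adjusted p = 0.00159), the latter 0.50 to 1.04 over the alternatives.

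Neu1, a sialidase that acts in a complex with beta-galactosidase and cathepsin A, read 1.79, 1.92, 2.00, 1.99 and 1.78 in 10-day controls and 2.75, 2.77, 2.60, 2.96 and 2.85 in 20-day controls. Irradiated serum gave 1.83, 1.87, 1.67, 1.66 and 1.73 at 4 Gy and 2.73, 2.53, 2.61, 2.41 and 2.39 at 8 Gy. The sets were separate, by 0.89 ± 0.08 between controls (adjusted p = 1.82e-08), and the arrays of the 20-day set overlapped. The change with 8 Gy serum, −0.25 ± 0.08 (adjusted p = 0.0188), was not called with the replicate block within the set (adjusted p = 0.139), under quantile normalisation (−0.07), cyclic loess (−0.10) or normexp (−0.21), or without control array 4 (−0.21) or 8 Gy array 4 or 5 (−0.22 each). Its dimmer probe gave 0.11 between controls and 0.20 with 8 Gy serum.

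Gusb, the beta-glucuronidase that acts on glycosaminoglycans, was 0.59 higher between controls (adjusted p = 2.56e-07) and 0.60 between irradiated groups. Galns, the sulfatase that acts on keratan sulfate and chondroitin 6-sulfate, was lower between controls by a log2 change of −0.63 (adjusted p = 4.64e-04). Its rise with 8 Gy serum (0.35, adjusted p = 0.0395) was lost without any 1 of 7 arrays: control arrays 3, 4 and 5 and 8 Gy arrays 1 to 4 (0.23 to 0.37). It was also lost with the replicate block within the set (adjusted p = 0.078) and under array-median scaling (0.21), quantile normalisation (0.27) and cyclic loess (0.31). Hexa, the alpha subunit of beta-hexosaminidase, changed by −0.16 between controls (adjusted p = 0.3), a difference called lower under quantile normalisation (−0.52), cyclic loess (−0.53) and normexp (−0.36) and without the 3 control arrays of the first 20-day slide (−0.57). It rose by 0.38 with 8 Gy serum (adjusted p = 0.0277), a call lost without control array 4 (0.32) or 5 (0.23) or 8 Gy array 2 (0.37), with arrays scaled to their median (0.24), and with the replicate block within the set (adjusted p = 0.102). Glb1, the lysosomal beta-galactosidase used as a histochemical marker of senescence, was lower between controls, at −0.25 (adjusted p = 0.0251), a call lost without 10-day control array 3 or 4 (−0.23 each) or 20-day control array 4 (−0.16) or 5 (−0.22), and under array-median scaling (−0.12) and normexp (−0.04). Man2b1, the lysosomal alpha-mannosidase, changed by 0.02 between controls and 0.04 with 8 Gy serum and was called in neither, though between controls it was called lower under cyclic loess (−0.20) and higher under normexp (0.24).

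The lipid and peptide group held 6 genes, of which 1 was higher and 2 were lower in control cultures of the 20-day set (37% and 29.4% of all genes). With 8 Gy serum 2 rose and 2 fell (17.3% and 28.8% of all genes). Grn encodes progranulin, a secreted glycoprotein that is taken up into lysosomes and cleaved into granulins. Its signal was 8.53, 8.46, 8.59, 8.42 and 8.47 in 10-day controls and 6.74, 6.79, 6.33, 6.05 and 6.48 in 20-day controls. It was 8.57, 8.54, 8.47, 8.35 and 8.21 with 4 Gy serum and 8.37, 8.20, 8.33, 8.25 and 8.21 with 8 Gy serum. The 20-day controls were below every array of the other 3 groups. The log2 change was −2.02 ± 0.11 between controls (4.05-fold lower, adjusted p = 1.37e-11) and 1.80 ± 0.11 with 8 Gy serum (3.48-fold higher, adjusted p = 2.37e-09), the largest of the 34 genes in both. These comparisons share the 20-day control arrays. Between irradiated groups Grn changed by −0.15 ± 0.11 (adjusted p = 0.249), which was called lower under cyclic loess (−0.51). A dimmer probe of Grn gave −0.09 between controls, 0.34 with 8 Gy serum and 0.29 between irradiated groups, and the mean of both probes gave −1.05 between controls and 1.07 with 8 Gy serum.

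Asah1, the acid ceramidase that splits ceramide into sphingosine and a fatty acid, had the opposite order. Its signal was 2.77, 2.90, 2.78, 2.92 and 2.62 in 10-day controls and 4.00, 3.85, 3.92, 3.82 and 3.57 in 20-day controls. It was 2.83, 2.70, 2.94, 2.78 and 2.88 with 4 Gy serum and 3.03, 3.06, 2.94, 2.87 and 2.90 with 8 Gy serum. Every 20-day control array exceeded all 15 other arrays. Asah1 changed by 1.03 ± 0.08 between controls (adjusted p = 2.00e-09) and −0.87 ± 0.08 with 8 Gy serum (adjusted p = 2.62e-07), the latter −1.01 to −0.49 over the alternatives, and it had 1 probe on the array.

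Psap encodes prosaposin, the precursor of the saposins that help hydrolases reach sphingolipids. Its signal was 4.79, 4.79, 4.67, 4.58 and 4.70 in 10-day controls and 3.90, 4.16, 4.07 and 4.19 on control arrays 1, 2, 4 and 5 of the 20-day set, the spot of array 3 having been left out. It was 4.76, 4.65, 4.65, 4.67 and 4.60 with 4 Gy serum and 4.54, 4.49, 4.64, 4.80 and 4.64 with 8 Gy serum. The 4 measured 20-day controls were below all other arrays. Psap changed by −0.62 ± 0.08 between controls (adjusted p = 1.34e-06) and 0.54 ± 0.08 with 8 Gy serum (adjusted p = 2.89e-05), with n = 4 controls in limma. A dimmer Psap probe, measured on all 20 arrays, gave −1.72 and 1.28. Tpp1, a lysosomal tripeptidyl peptidase, fell with 8 Gy serum, by −0.26 (adjusted p = 0.0141), though not with the replicate block within the set (adjusted p = 0.0825), quantile normalisation (−0.01) or cyclic loess (−0.04). Its change between controls (0.15) was not called. It was called higher with arrays scaled to their median (0.28), with the mean of both probes (0.50) and without 20-day control array 3 (0.20), and called lower under quantile normalisation and cyclic loess (−0.21 each). Npc2, the soluble cholesterol-binding partner of NPC1, changed by 0.29 between controls (called at 0.41 without 20-day control array 5 and at 0.42 with arrays scaled to their median, and −0.10 under quantile normalisation) and was 0.61 higher between irradiated groups (adjusted p = 0.0038), though not called under normexp (0.37). Lipa, the acid lipase that hydrolyses cholesteryl esters, changed by 0.12 between controls, where 20-day control array 1 stood at −0.018 and the other 4 between 0.94 and 1.01; without that array the change was called, at 0.32.

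The response to irradiated serum was then compared between the sets, as the 8 Gy change minus the 4 Gy change. It differed for 11 of the 34 genes, 7 in the positive and 4 in the negative direction (12.2% and 22% of all 20224 genes, 34.2% in either direction). The positive differences were Grn at 1.86 ± 0.16 (adjusted p = 4.40e-07), Atp6v0a1 at 0.78, Atp6v1a at 0.66, Psap at 0.58, Hexa at 0.54, Atp6ap1 at 0.43 and Atp6v0d1 at 0.42. The negative ones were Lamp1 at −0.99, Asah1 at −0.90 ± 0.12 (adjusted p = 2.34e-05), Mcoln1 at −0.66 and Scarb2 at −0.45. Scarb2 lost its call without any 1 of 14 arrays (−0.47 to −0.36) and Hexa without any 1 of 9 (0.49 to 0.54). With slide as a random block 4 positive and 1 negative calls were made. Over all genes there were 1321 and 2299, against 2469 and 4446 in the full fit. With that block Atp6v0d1, Atp6ap1, Hexa, Lamp1, Mcoln1 and Scarb2 lost their calls. Atp6v0d1 and Atp6ap1 also lost theirs with array-median scaling (0.35 and 0.36) and normexp (0.41 and 0.36), and Atp6v0a1 with the mean of its probes (0.25). Gaa, not called in the full fit (0.53, adjusted p = 0.0554), was called without 20-day control array 2 (0.63) or 3 (0.60) or 8 Gy array 5 (0.60), under quantile normalisation (0.59), cyclic loess (0.65) and normexp (0.99), with the stricter filter on dim probes (adjusted p = 0.0487), and without the 3 control arrays of the first 20-day slide (0.93). Because doses and sets changed together, the difference between doses and that between sets cannot be told apart.

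**Figure D3:**
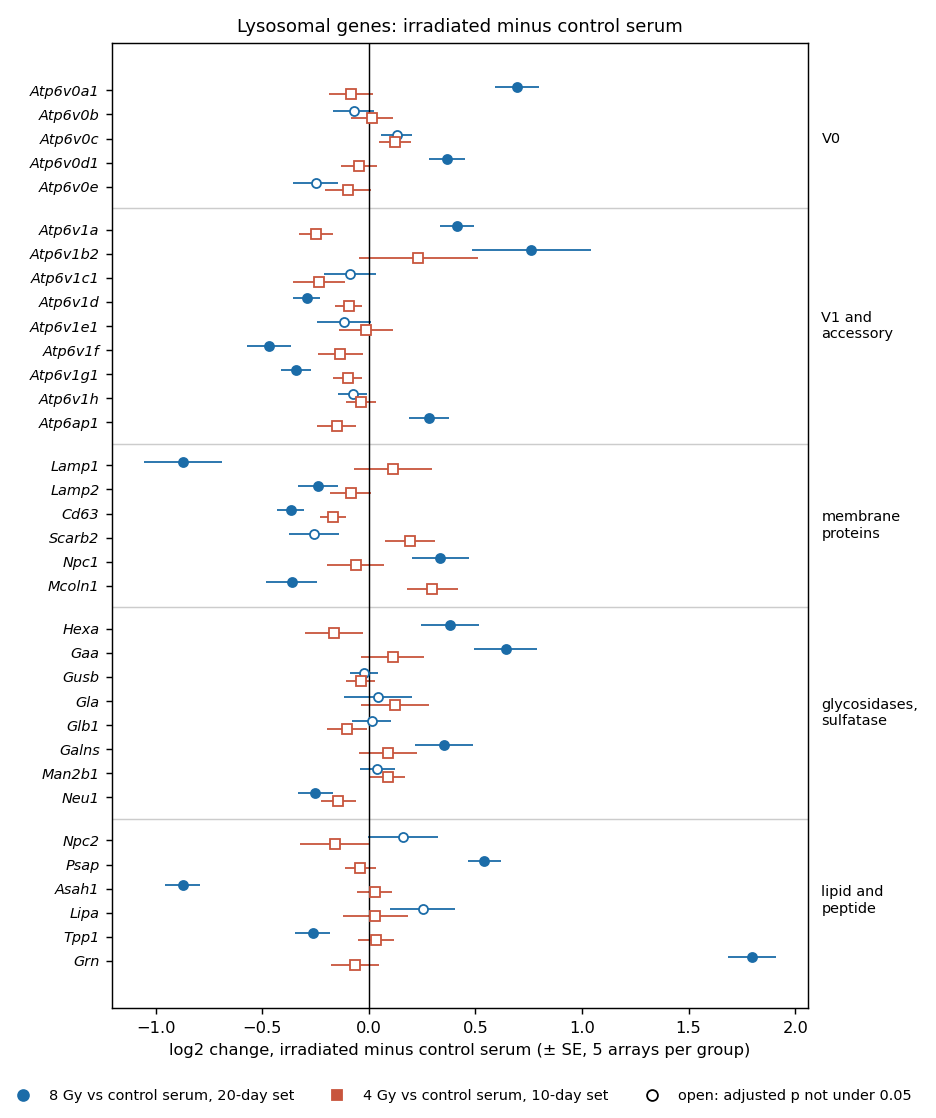
Log2 change of each lysosomal gene with irradiated serum relative to control serum of the same set (x axis), 8 Gy in the 20-day set (circles) and 4 Gy in the 10-day set (squares); bars are SE of the limma fit, and open symbols did not pass the threshold. All 4 Gy symbols are open and lie between −0.25 and 0.30, while the 8 Gy symbols run from −0.87 (Asah1 and Lamp1) to 1.80 (Grn).

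With 4 Gy serum the log2 changes of the 34 genes lay between −0.25 and 0.30, 13 above 0 and 21 below it. The smallest adjusted p belonged to Atp6v1a, at −0.25 ± 0.08 (adjusted p = 0.0712), followed by Cd63 at −0.17 ± 0.06 and Mcoln1 at 0.30 ± 0.12 (adjusted p = 0.146). Atp6v1a passed without control array 5 (−0.29) or 4 Gy array 1 (−0.27), under quantile normalisation (−0.26, adjusted p = 0.0471) and with the replicate block (adjusted p = 0.0323). A fit on the 10 arrays of this set alone called it and Atp6v1c1, at −0.23 (adjusted p = 0.0496), both downward, and normexp called Mcoln1 upward (0.35, adjusted p = 0.0429). The only slide with both groups held control array 5 and 4 Gy arrays 1 and 2. On it 16 of the 34 genes had the sign they had over all arrays, a count not made over all genes. The median change of the 34 genes there was 0.05, against 0.01 over all genes. The arrays of this slide are also part of the change over all arrays. On that slide Mcoln1 changed by −0.03 and Atp6v1a by −0.03.

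Of the 34 genes, 13 had 2 probes, both tested. Their probes agreed in sign between controls for 12 of 13, Atp6v0a1 being the exception, and with 8 Gy serum for 10 of 13, the exceptions being Atp6v0a1, Scarb2 and Neu1. The probes of Atp6v1e1 (1.32 and 1.32 between controls), Atp6v1h (0.76 and 0.80) and Atp6v1f (1.24 and 1.48) were close. Probes of Grn, Psap, Atp6v0a1, Neu1, Lamp2, Tpp1, Atp6v1g1, Glb1 and Scarb2 were more than 0.45 apart in at least 1 of these comparisons. Neu1 gave 0.89 and 0.11 between controls and Lamp2 gave 0.59 and 1.25. Glb1 gave 0.01 and 0.55 with 8 Gy serum, where the mean of its probes was called (0.28, adjusted p = 0.00281), and Tpp1 gave −0.26 and −0.87 with 8 Gy serum. Which transcripts each probe reports was not analysed here.

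**Figure D4:**
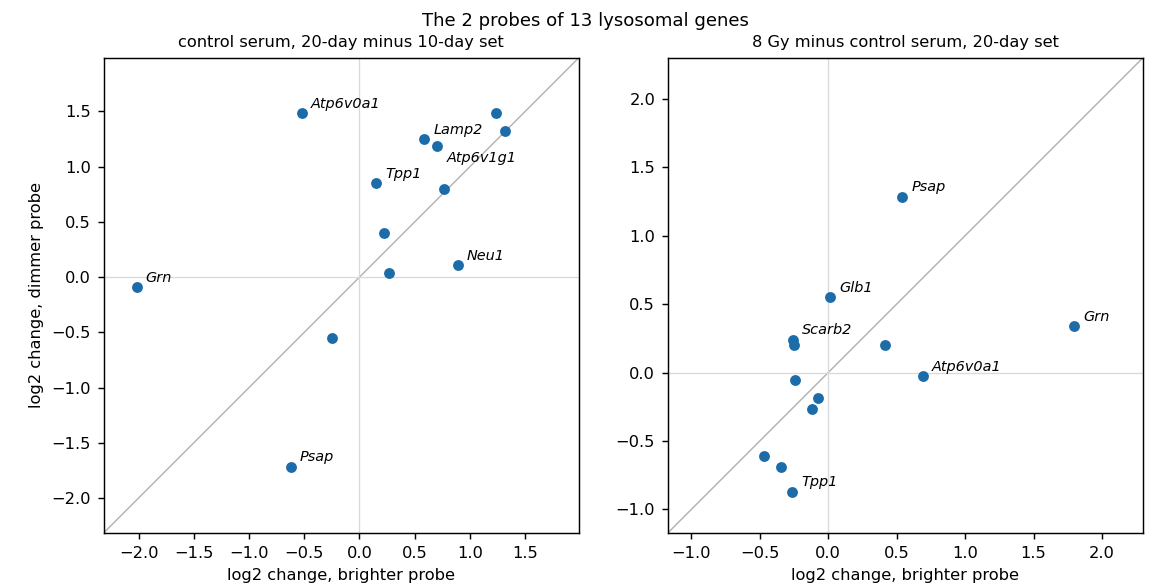
Log2 change by the dimmer probe (y axis) against that by the brighter probe (x axis) for the 13 genes with 2 probes, between control groups (left) and with 8 Gy serum (right); the diagonal marks equal values. Atp6v0a1 lies at −0.52 and 1.48 between controls, and Grn at −2.02 and −0.09.

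Other genes of the same compartment were read from lists of related genes. For each of these lists the background was 37% of all genes higher and 29.4% lower between controls. With 8 Gy serum it was 17.3% rising and 28.8% falling. Of 9 other V-ATPase subunits and isoforms tested, 5 were higher and 1 lower in control cultures of the 20-day set. The 5 include Atp6v0d2 and Atp6v1c2, which passed the filter on dim probes only through the 20-day set. Atp6v0d2, a d isoform found in osteoclasts and macrophages, was not well above background on any 10-day array. It was at least 17.0-fold higher in 20-day controls, given as a bound without a p-value because the 10-day signal was background. Atp6v1c2, an isoform of subunit C, was at least 2.49-fold higher by the same bound, the lowest signal well above background on each array. Atp6v0a4, an isoform known from the kidney, was lower, with a log2 change of −2.57 ± 0.40. With 8 Gy serum Tcirg1, which encodes the a3 isoform used by osteoclasts, rose by 0.51 ± 0.09 (adjusted p = 2.04e-04), Atp6ap2, the second accessory protein, fell by a log2 change of −0.76 (adjusted p = 0.0188), and the other 7 were not called.

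Among 12 protease genes, the cathepsins and legumain, 9 were higher and 2 lower in 20-day controls, led by Ctss (cathepsin S of antigen-presenting cells) at 5.22 ± 0.11 and Ctsk (cathepsin K of osteoclasts) at 2.25 ± 0.11. The lower ones were Ctsf at −0.59 and Ctsh at −0.39. In response to 8 Gy serum 1 of them rose, Ctsf at 0.46, and 4 fell, led by Ctsc at −0.44 and Ctsh at −0.32. Of 24 other lysosomal enzymes and cofactors 12 were higher and 5 lower in 20-day controls: Hyal2, a hyaluronidase, was 0.95 higher and Manba, the beta-mannosidase, 0.91, while Idua, the alpha-iduronidase, and Naglu, an enzyme of heparan sulfate breakdown, changed by −1.33 and −0.73. With 8 Gy serum 4 rose, led by the lysosomal phospholipase Pla2g15 at 0.76 and Idua at 0.64, and 7 fell, among them the sulfatase Ids at −0.62. Of 21 other membrane and sorting proteins 13 were higher and 3 lower in 20-day controls, and 3 rose and 9 fell with 8 Gy serum. Slc11a1, a metal transporter of phagocytes, was 3.90 higher and Laptm5, a lysosomal protein of blood cells, 3.72. Clcn7, the chloride-proton exchanger, and Igf2r, a receptor that sorts enzymes by mannose 6-phosphate, changed by −1.05 and −0.96. With 8 Gy serum Cln3 (0.61) and Clcn7 (0.56) rose, and Mfsd8 (−0.61) and the cystine exporter Ctns (−0.56) fell.

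Of 22 regulators of lysosomal genes and autophagy 10 were higher and 5 lower in 20-day controls (37% and 29.4% of all genes). The MiT/TFE factors, which bind the CLEAR element, did not move together: Tfec was 4.75 ± 0.32 higher and Mitf 1.57 ± 0.10, while Tfe3 changed by −1.23 ± 0.20 and Tfeb by −0.51 ± 0.21 (adjusted p = 0.0358). In response to 8 Gy serum 4 regulators rose, among them Tfe3 at 1.39 ± 0.20 (adjusted p = 2.65e-05) and Tfeb at 1.10 ± 0.21 (adjusted p = 2.95e-04), and 6 fell, led by the autophagy gene Atg5 at −0.61 and the autophagy receptor gene Sqstm1 at −0.36. With 4 Gy serum 1 gene of all these lists rose, Atp6v1g2 at 0.93, and 2 fell, Aga at −0.31 and Ulk1 at −0.38. A random block for slide left 0 upward calls and 1 downward call over all genes, so the upward call and at least 1 of these downward calls did not hold under it.

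Marker genes of other cell types moved with the difference between the sets. Of the 17 macrophage markers, Spi1 was not well above background on any 10-day array, and Cd68 had no named probe. The summed signal of the 16 measured on all 20 arrays, on the log2 scale, was 0.75 to 1.29 in 10-day controls, 1.18 to 1.46 with 4 Gy serum, 5.54 to 5.65 in 20-day controls and 5.30 to 5.60 with 8 Gy serum. Adgre1 was left out of these sums because it was measured on 3 of the 5 control arrays of the 20-day set. Adgre1, encoding F4/80, was 5.49 higher, Tyrobp 5.96 and Csf1r 3.27. With 8 Gy serum 4 of the 17 fell (28.8% of all genes) and the other 13 were not called, the 4 including Adgre1 at −0.78 and Tyrobp at −0.72. With 4 Gy serum Cd14, Lyz2 and C1qb, 3 of the 17, rose (4.5% of all genes), none of them with slide as a random block. Of 10 osteoclast markers, which include Ctsk and Atp6v0d2, 8 were higher and 2 lower in 20-day controls (37% and 29.4% of all genes). The 8 include Calcr, Dcstamp and Atp6v0d2, which passed the filter on dim probes only through the 20-day set. The summed signal of the 10 markers ran from 2.60 to 2.91 in 10-day controls and from 4.81 to 5.03 in 20-day controls. The 12 fibroblast markers were well above background on all 20 arrays, with 2 higher and 7 lower in 20-day controls, Fn1 by the most (−2.59 ± 0.09), and their summed signal was 10.01 to 10.17 in 10-day controls and 9.36 to 9.66 in 20-day controls. Of 8 lymphocyte markers 1 passed the filter on dim probes. The part of the osteoclast and fibroblast markers in the values of the lysosomal genes was likewise not tested.

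**Figure D5:**
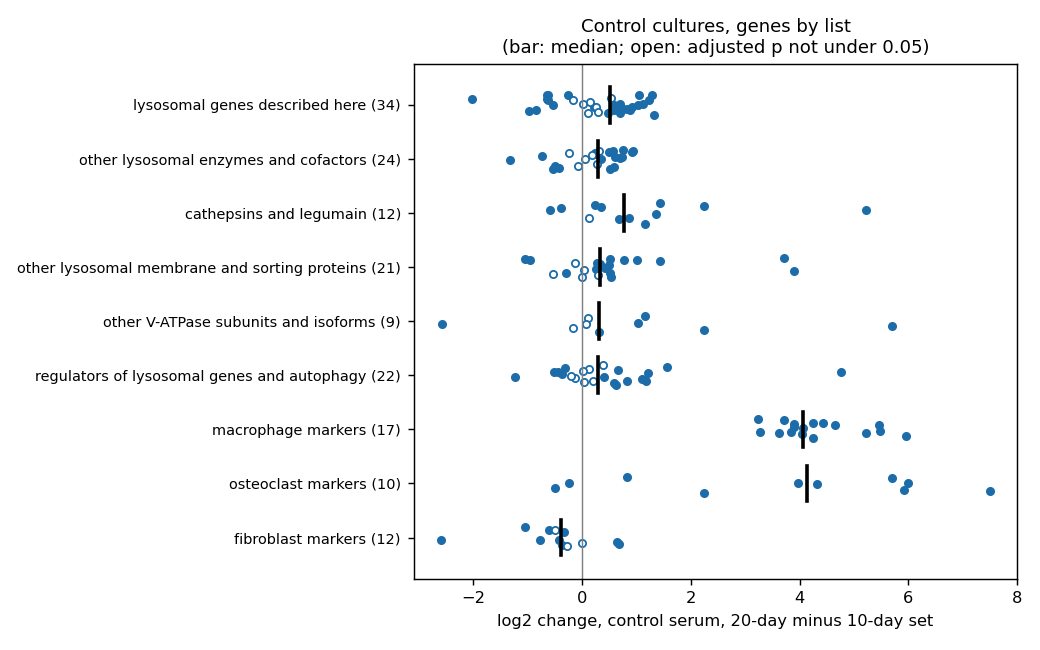
Log2 change between control cultures of the 20-day and the 10-day set (x axis) for every tested gene of each list (rows, number tested in brackets), with open points not called and a bar at the list's median. The lysosomal genes have a median of 0.51, and the macrophage markers, between 3.23 and 5.96, lie entirely above them. The macrophage point of Spi1 and some osteoclast and V-ATPase points rest on 10-day signals not above background.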

How the data were processed

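RNA of the cultures was hybridised to 20 one-colour Agilent arrays. The authors deposited scanner files with a background-subtracted, detrended intensity per spot, raw median intensities and 0 or 1 marks for spot quality, per the file headers, and a table of log2 values centred per probe, whose arrays matched these differences (correlation of at least 0.9956). The submitters' processing notes name Agilent Feature Extraction 11.0, whereas the file headers give an earlier version. The genome build the authors used is not given in the sources used here; promoter coordinates are RefSeq's, on GRCm38.p6.

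Control spots and outlier spots (50 to 181 an array) were dropped, saturation marks were absent, spots of a probe were averaged, and log2 intensity minus the array's 75th percentile (731 to 1464) was tested. A probe was tested if well above background on all 5 arrays of a group (26233 probes, 20226 genes or unnamed probes), and RefSeq accessions named 24844 probes. Group means of all 20 arrays were fitted together with lmFit and eBayes (limma 3.58.1, R 4.3.3), with Benjamini-Hochberg adjustment over all genes and a threshold of 0.05. The fit was tested on simulated data.

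Alternatives were array-median, quantile and cyclic loess scaling, normexp (offset 50) on median signals in place of the mean signals planned, other filters, probe means, the deposited log2 table, fits on the compared groups, slide and replicate blocks, and leaving out each array. Deviations of same-numbered arrays correlated at −0.05 to 0.18 in the 10-day set and 0.14 to 0.41 in the 20-day set. The labels name no shared source, and in each set only 2 of 5 arrays correlated best with the array of their own number. Every pair of the 20-day set exceeded 0.1, so the block was also fitted within that set.

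Genes with every array's value were, in each role, those with the largest changes up or down between controls or with 8 Gy serum, plus the 8 with the smallest p for the difference between the responses. From the related lists, the 2 highest and 2 lowest called changes were named, except for a gene that is not reported here. The members and the lists were chosen with earlier results of these data known.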

Additional observations from a re-analysis of the deposited data

Results flagged for a closer look

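Single arrays stood apart from the other 4 of their group by Dixon's test for 5 member values, of 136 combinations of a gene and a group; chance flags about 1 in 20 groups. Lamp1 read 3.80 on 8 Gy array 1 and 4.99 to 5.10 on the others. Atp6v0b read 2.86 on 8 Gy array 5 and 3.16 to 3.23 on the others. Lipa read −0.018 on control array 1 of the 20-day set and 0.94 to 1.01 on the others. Scarb2 read 1.51 on control array 1 of the 10-day set and 1.70 to 1.77 on the others, and Glb1 read 1.88 on 4 Gy array 5 and 1.91 to 1.93 on the others.

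The response to irradiated serum differed between the sets for 11 genes in limma, given here as the 8 Gy change minus the 4 Gy change. The difference was 1.86 for Grn, 0.78 for Atp6v0a1, 0.66 for Atp6v1a, 0.58 for Psap, 0.54 for Hexa, 0.43 for Atp6ap1 and 0.42 for Atp6v0d1. It was −0.99 for Lamp1, −0.90 for Asah1, −0.66 for Mcoln1 and −0.45 for Scarb2. Dose, set, slide and scan day cannot be told apart in these differences.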

How the results depend on the processing

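Of the members' counts and medians over all alternatives, 313 stayed close to the reported value and 35 moved. The cause was not tested, and calls over all genes moved as well. With 8 Gy serum they were 3491 upward and 5817 downward as reported, 2367 and 8074 under array-median scaling, and 3867 and 4816 under cyclic loess. As reported they were 911 and 296 with 4 Gy serum and 2469 and 4446 for the difference between the responses. Between irradiated groups they were 5911 and 5824. Whole numbers in brackets after a count of genes below are the calls over all genes in the same direction and setting. With arrays scaled to their median, 5 genes rose with 8 Gy serum (2367) and 4 differed upward between the responses (1991). Between irradiated groups 1 was lower (5097). With quantile normalisation, 1 gene fell with 4 Gy serum (537), 4 fell with 8 Gy serum (4999) and 8 were lower between irradiated groups (5867). The medians between control groups and between irradiated groups were 0.22 and 0.25. With cyclic loess, 2 fell with 8 Gy serum (4816), 9 were lower between irradiated groups (5838), and those medians were 0.13 and 0.22. With normexp, 1 rose with 4 Gy serum (985), 7 rose with 8 Gy serum (2960), and the median between control groups was 0.34. With no filter on dim probes 1 was lower between irradiated groups (6235, of 33507 tested). Fits on the compared groups only gave 2 falling with 4 Gy serum (929) and 6 rising with 8 Gy serum (2553). They gave 6 lower between irradiated groups (6676). Slide as a random block gave 6 rising (2119) and 6 falling (3792) with 8 Gy serum. It gave 4 up (1321) and 1 down (2299) for the difference between the responses, and 1 lower between irradiated groups (4322). The authors' deposited values gave 2 falling with 4 Gy serum (937) and 6 rising with 8 Gy serum (2629). The replicate block over all arrays gave 1 falling with 4 Gy serum (490). The replicate block within the 20-day set, chosen after seeing the data, gave 6 rising (2518) and 6 falling (4440) with 8 Gy serum. Without the 3 control arrays of the first slide of the 20-day set, also chosen after seeing the data, 12 genes differed upward between the responses (3499). Leaving out 1 array in turn gave 0 to 1 falling with 4 Gy serum, 1 without control array 5 (303) or 4 Gy array 1 (630). With 8 Gy serum 7 to 11 rose, 7 without control array 4 (3536). Between irradiated groups 1 to 4 were lower, 1 without 4 Gy array 3 (5386) or 8 Gy array 5 (5544). Direction turned for Gusb with 8 Gy serum under quantile normalisation (0.15), Lamp2 with 8 Gy serum under cyclic loess (0.027) and normexp (0.066), Cd63 with 8 Gy serum under cyclic loess (0.0030), Tpp1 between controls under quantile normalisation (−0.21) and cyclic loess (−0.21), Man2b1 between controls under cyclic loess (−0.20) and Atp6v0a1 between controls with the mean of its probes (0.48). Signal over background set no limit for the 34 genes, which were well above background on every array that measured them, and the number of arrays, 5 a group, limits the precision.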
